A study of Drosophila melanogaster with 55 samples.

Results

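Chromosome 4 of Drosophila melanogaster was examined as a domain of its own across the HP1, H3K9me2, H3K9me3, Top3b and FLAG island lists of fly heads. Its members were all bins of 1 kb from base 1 to base 1348131 of the dm6 assembly, which gave 1349 of the 137552 bins of the assembled chromosomes X, Y, 2, 3 and 4. The 14959 bins of the pericentric regions of chromosomes 2 and 3 served for comparison. An island is a region that the authors called enriched in ChIP-seq over input DNA, and islands with a score of at least 200 were kept in every list. Coverage is the percentage of bases inside islands, and a bin was covered when at least 50% of its bases lay in islands. Choosing the bins by position used no measured value.

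The study asked whether the topoisomerase Top3b and the RNA interference protein AGO2 act in heterochromatin, and it profiled heads of adult flies aged 1 to 2 weeks. Of its 55 samples, 33 had an island list, and the other 22 were input DNA and had none here. HP1 was profiled in the control line w1118 (3 libraries), in the Top3b mutant Top3b26 (3), in the AGO2 mutant AGO2 1-1-7 (2) and in the double mutant Top3b26;AGO2 1-1-7 (2), here called the double mutant. H3K9me2 and H3K9me3 were profiled in w1118 and Top3b26 with 3 libraries each, Top3b in w1118 with 3 libraries, and FLAG in flies with a FLAG tag knocked into AGO2 (FLAG-AGO2, 2) and in untagged w1118 (1). A complementation set of 5 HP1 libraries, 1 per line, held w1118, Top3b26 alone, and Top3b26 with a UAS transgene driven by Act-Gal4, an actin driver, for wild-type Top3b (WT), a form with its catalytic tyrosine replaced (Y332F) or a form without the RNA-binding RGG box (dRGG). Each mutant is a single line. Top3b26 was made by remobilizing a P element and AGO2 1-1-7 by CRISPR, so the allele and the rest of its line cannot be told apart. Heads hold many cell types, and each library pooled heads. For the methyl marks the authors used a single input library per line, so line and input cannot be told apart there. The H3K9me3 library of Top3b26 replicate 2 carries a description that names H3K9me2, and it was used as its title says.

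Chromosome 4 is the small dot chromosome of the fly. It is a mosaic in which heterochromatin protein 1 (HP1) and methylated H3K9, the marks that silence repeats near centromeres, lie over most genes although many of those genes are transcribed. H3K9 methylation is laid down here largely by the methyltransferase Eggless. Short transposons such as INE-1 and 1360 are scattered between and within genes, and the far end carries the telomeric retrotransposons HeT-A and TART.

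The Ensembl annotation placed 118 genes on chromosome 4, among them 80 that code for protein, 30 for noncoding RNA and 7 pseudogenes, together with 566 transposable elements. Genes spanned 78.95% of the chromosome, exons 32.8%, introns 46.1% and transposable elements 24.8%. Its GC content was 35.2%, and 17000 bases were unknown. The following sequences, from the RefSeq genome of the same assembly, show the kinds of sites described below. The first 4 are promoters that lay in HP1 islands of all 3 w1118 libraries and in no H3K9me2 or H3K9me3 island, read 5′ to 3′ along the gene from 250 bases before its start, with the first 20 transcribed bases in capitals.
lgs, chr4:443892-444161, minus strand: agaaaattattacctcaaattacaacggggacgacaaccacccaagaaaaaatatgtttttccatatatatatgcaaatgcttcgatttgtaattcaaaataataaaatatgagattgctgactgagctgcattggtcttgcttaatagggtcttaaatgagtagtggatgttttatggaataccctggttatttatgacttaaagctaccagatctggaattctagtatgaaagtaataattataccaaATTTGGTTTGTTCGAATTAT
CaMKI, chr4:445254-445523, plus strand: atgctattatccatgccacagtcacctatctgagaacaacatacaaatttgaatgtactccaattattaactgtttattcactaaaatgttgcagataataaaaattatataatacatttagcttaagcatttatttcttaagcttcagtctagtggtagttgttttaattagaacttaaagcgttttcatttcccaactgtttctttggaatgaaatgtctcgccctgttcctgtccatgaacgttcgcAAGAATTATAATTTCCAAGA
RpS3A, chr4:67188-67457, minus strand: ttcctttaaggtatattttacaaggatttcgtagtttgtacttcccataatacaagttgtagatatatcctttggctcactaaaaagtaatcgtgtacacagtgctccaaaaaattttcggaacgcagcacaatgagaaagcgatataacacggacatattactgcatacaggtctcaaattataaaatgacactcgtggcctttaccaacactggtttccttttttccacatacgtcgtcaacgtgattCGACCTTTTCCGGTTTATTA
myo, chr4:696036-696305, minus strand: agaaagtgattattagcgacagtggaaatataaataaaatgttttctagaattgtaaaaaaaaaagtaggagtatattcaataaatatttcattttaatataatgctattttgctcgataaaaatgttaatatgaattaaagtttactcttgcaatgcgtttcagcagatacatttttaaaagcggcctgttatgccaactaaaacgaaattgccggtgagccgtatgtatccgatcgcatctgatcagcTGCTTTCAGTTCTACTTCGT

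The other 4 are runs of 300 bases from the middle of the longest stretch of a class: Gyf, inside all 9 HP1, H3K9me2 and H3K9me3 lists of w1118, with an INE-1 copy in capitals; bt, coding sequence inside HP1 islands throughout w1118 and outside them in both AGO2 1-1-7 libraries; asRNA:CR43957, an intron with the opposite pattern; and HeT-A, in H3K9me3 islands of every Top3b26 and of no w1118 library. Their GC contents were 38.7%, 42%, 23.7% and 50.7%.
Gyf, chr4:859901-860200, plus strand: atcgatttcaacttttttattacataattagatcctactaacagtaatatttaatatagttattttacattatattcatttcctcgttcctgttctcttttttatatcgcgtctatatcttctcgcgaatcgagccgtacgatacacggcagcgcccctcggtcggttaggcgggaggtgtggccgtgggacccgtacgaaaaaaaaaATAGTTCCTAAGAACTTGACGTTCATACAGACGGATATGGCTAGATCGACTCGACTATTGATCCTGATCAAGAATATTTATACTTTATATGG
bt, chr4:761201-761500, plus strand: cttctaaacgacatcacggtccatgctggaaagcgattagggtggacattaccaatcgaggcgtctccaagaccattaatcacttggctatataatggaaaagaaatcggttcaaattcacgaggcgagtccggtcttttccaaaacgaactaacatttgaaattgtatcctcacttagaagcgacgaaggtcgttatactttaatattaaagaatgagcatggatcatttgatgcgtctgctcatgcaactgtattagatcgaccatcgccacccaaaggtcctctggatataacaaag
asRNA:CR43957, chr4:59501-59800, plus strand: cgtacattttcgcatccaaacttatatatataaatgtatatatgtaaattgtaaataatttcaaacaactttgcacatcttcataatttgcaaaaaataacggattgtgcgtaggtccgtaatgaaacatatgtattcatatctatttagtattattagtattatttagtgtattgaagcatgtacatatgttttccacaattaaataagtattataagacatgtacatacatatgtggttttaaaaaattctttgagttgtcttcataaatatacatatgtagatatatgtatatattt
HeT-A, chr4:1317351-1317650, plus strand: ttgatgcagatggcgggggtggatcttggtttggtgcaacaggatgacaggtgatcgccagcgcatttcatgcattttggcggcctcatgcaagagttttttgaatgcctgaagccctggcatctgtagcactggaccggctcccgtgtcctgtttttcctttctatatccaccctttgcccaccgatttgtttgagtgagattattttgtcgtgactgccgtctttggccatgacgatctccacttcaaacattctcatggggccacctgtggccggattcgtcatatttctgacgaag

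In w1118, HP1 covered most of chromosome 4, H3K9me3 somewhat less and H3K9me2 the least. HP1 islands covered 53.5%, 68.5% and 63.6% of the chromosome in the 3 libraries. H3K9me3 islands covered 38.0%, 47.6% and 43.4%, and H3K9me2 islands 36.0%, 22.5% and 31.2%. All HP1 values were above all H3K9me3 values, and those were above all H3K9me2 values. The order was different in the pericentric regions, where coverage was 57.3% to 59.7% for HP1, 53.2% to 68.0% for H3K9me2 and 54.7% to 64.0% for H3K9me3. Over all lines, HP1 coverage of chromosome 4 was above the pericentric coverage in 14 of 15 lists, while for H3K9me2 and for H3K9me3 this held in 0 of 6 lists. The lists differed in how they were built: neighboring HP1 islands were never closer than 1100 bp in w1118 and Top3b26 replicates 2 and 3, and came as close as 700 bp in the other HP1 lists.

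**Figure D1:**
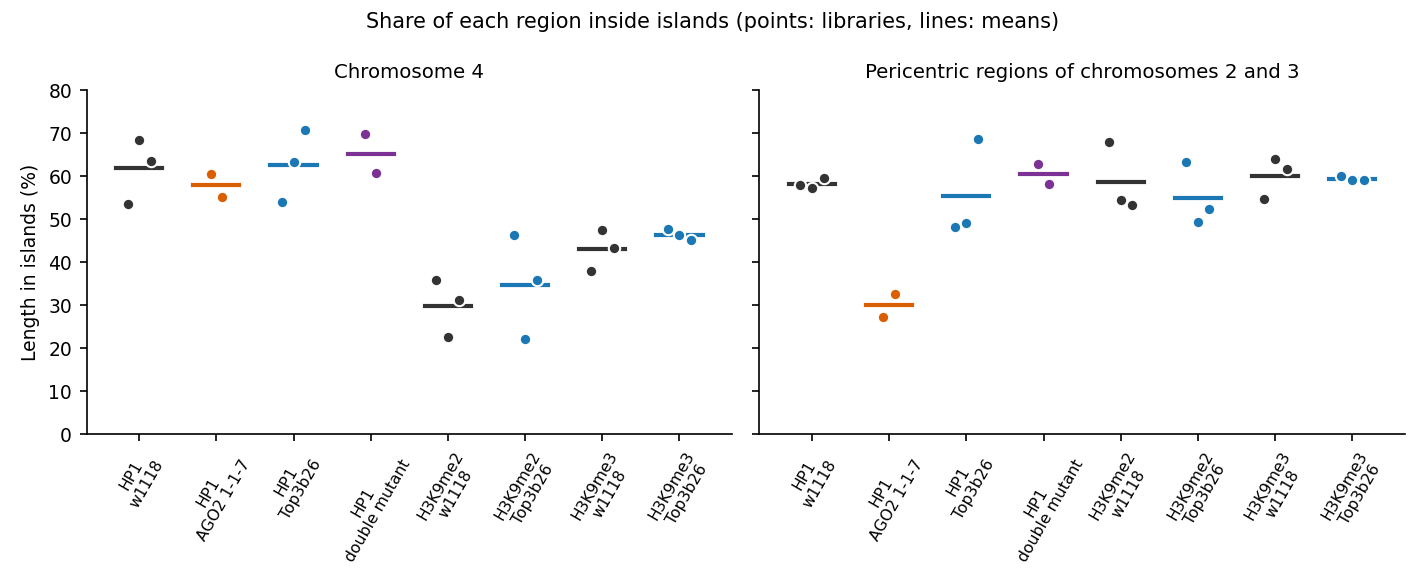
Percentage of chromosome 4 (left) and of the pericentric regions of chromosomes 2 and 3 (right) inside islands with a score of at least 200; points are libraries and lines are means. HP1 in AGO2 1-1-7 lies between 27.3% and 32.6% in the pericentric regions, below every other HP1 library, and at 55.2% and 60.6% on chromosome 4, within the range of w1118.

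The 3 marks were layered on the same bins. With a mark counted where at least 2 of 3 w1118 libraries covered the bin, HP1 lay on 875 bins, H3K9me3 on 599 and H3K9me2 on 413. Of the H3K9me2 bins 93.7% carried HP1, and of the H3K9me3 bins 93.7% did. All 3 marks met on 362 bins (26.8%), HP1 with H3K9me3 alone on 199, HP1 alone on 289, and none of the 3 on 428. By this rule, HP1 without H3K9 methylation made up 33.0% of the HP1 bins of chromosome 4, against 6.94% of the 8892 pericentric HP1 bins. A stricter rule, HP1 in all 3 libraries and no methyl library at all, left 83 of the 686 bins with HP1 in all 3. The w1118 methyl lists had a smallest island distance of 700 bp, against 1100 bp in HP1 replicates 2 and 3. The score minimum kept 120 of 208, 182 of 212 and 186 of 232 H3K9me3 islands of chromosome 4 in the w1118 libraries. For H3K9me2 it kept 164 of 174, 111 of 142 and 137 of 177. For HP1 it kept 188 of 198, 98 of 99 and 103 of 105. Methyl islands below the minimum count as absent here. The part of island distance and score minimum in the shares was not tested. Bins with all 3 marks were rich in transposable elements, with a mean of 39.3% of their bases, against 15.5% in bins with HP1 alone and 19.3% in bins with none. Their GC content averaged 38.2%, 32.8% and 32.5% in the same order. Gene starts lay in 51 of the 289 bins with HP1 alone (17.6%) and in 12 of the 362 bins with all 3 marks (3.31%).

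Stretches inside all 9 w1118 lists added up to 210.6 kb in 74 pieces. The longest was an 8.7-kb stretch within Gyf (855701 to 864400), whose protein represses translation, and 38.3% of it was transposable element. Next came 8.3 kb over the start of unc-13 (905201 to 913500), a gene for synaptic vesicle priming, of which 69.4% was transposable element, and 8 kb in an intron of Syt7 (282801 to 290800), a synaptotagmin gene, of which 92.4% was rooA and Cr1a sequence. A stretch of 6.3 kb in bt (758201 to 764500) was in all 9 lists too, although it was 99.7% exon and held no annotated transposable element. The gene bt encodes projectin, a giant muscle kinase.

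Stretches inside none of the 9 lists added up to 327.9 kb in 107 pieces. The longest was the distal tip (1320101 to 1348131), 28.03 kb of which 92.2% was transposable element, mostly TART-A. Reads with more than 3 positions in the genome had been dropped by the authors, and whether reads could be placed at the tip was not tested. The next were 17.9 kb of intron in Mitf (1199801 to 1217700), which encodes a transcription factor of lysosome genes, and 13.8 kb around the start of Asator (484701 to 498500), a tubulin kinase gene. Neither stretch was rich in transposable elements, with 0% and 5.34%. No list of any line had an island beyond base 1320800.

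HP1 and H3K9 methylation parted at gene starts. HP1 covered most of the window of 250 bp on each side of the start in 56, 63 and 55 of the 80 protein-coding genes of chromosome 4 in the w1118 libraries, with 46 genes covered in all 3. H3K9me2 covered 4, 3 and 4 starts, and H3K9me3 covered 3, 13 and 14. At the start itself HP1 islands were present in 72.5% of these genes (68.8% to 78.8% over libraries), H3K9me2 in 4.58% (3.75% to 5%) and H3K9me3 in 12.5% (3.75% to 17.5%). At 3 kb downstream of the start the values were 66.7% (55% to 72.5%), 31.7% (20% to 37.5%) and 49.6% (46.3% to 53.8%). All 80 genes were counted there, and in genes shorter than 3 kb, such as RpS3A, this position lies past the gene end. The ranges at 0 and 3 kb did not overlap for either methyl mark, while those of HP1 did. Over all lines, coverage of gene bodies was above that of gene starts in 6 of 6 H3K9me2 lists and 6 of 6 H3K9me3 lists, and in 0 of 15 HP1 lists.

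**Figure D2:**
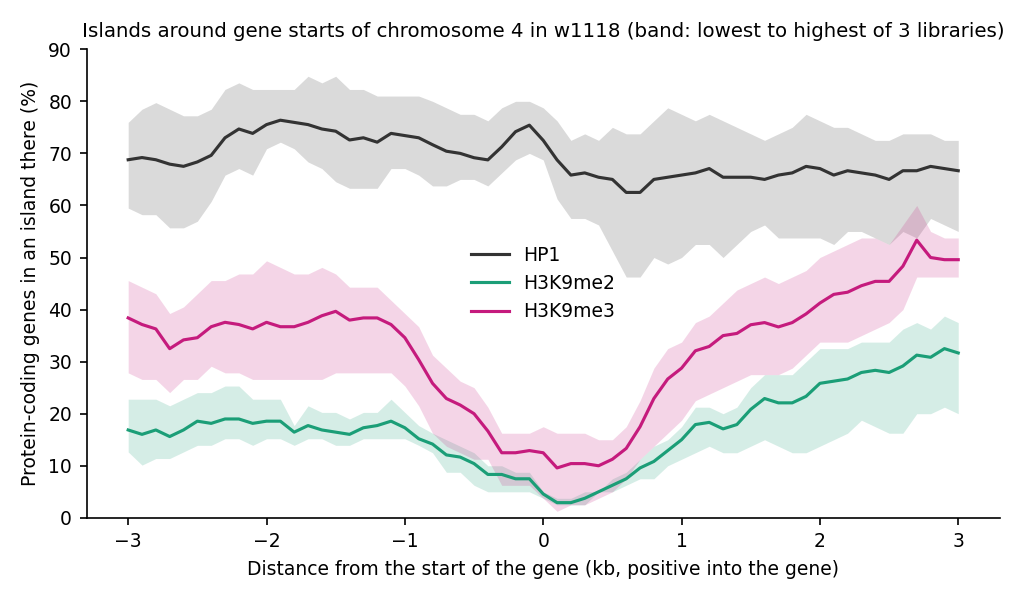
Percentage of the 80 protein-coding genes of chromosome 4 with an island at each distance from the gene start (kb, positive into the gene) in w1118; lines are means and bands run from the lowest to the highest of 3 libraries. H3K9me2 drops to 4.58% and H3K9me3 to 12.5% at the start, where HP1 stands at 72.5%. For a gene shorter than the distance, the position lies past its end.

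The starts with HP1 in all 3 libraries and no methyl island past the score minimum belonged to 27 genes. They included pho, a DNA-binding Polycomb group protein, toy, a Pax6 factor of eye development, gw, the GW182 protein of microRNA silencing, RpS3A, a ribosomal protein, and the kinase CaMKI. Islands of the untagged FLAG library covered 88.6% of the start window of RpS3A and 0% of those of pho, toy, gw and CaMKI. That library covered 9 of the 80 coding starts, and its part in the HP1 islands at starts was not tested. The longest stretches of this kind spanned the divergent starts of lgs, a Wnt pathway coactivator, and CaMKI (443401 to 447200, 3.8 kb), and the start of myo, a TGF-beta ligand (694301 to 697600, 3.3 kb). The promoters of lgs, CaMKI, RpS3A and myo printed above lie in such stretches. At 11 genes the start lay in no HP1 island of these 3 libraries, among them bt, Asator, fd102C, RhoGAP102A and dpr7. In the w1118 library of the complementation set the start windows of bt and Asator were at 0% too, while that of fd102C was at 55.7% and those of RhoGAP102A and dpr7 were at 100%. Between these groups 42 starts remained.

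Promoters of 300 bases, 250 before and 50 after the start, were searched on both strands for TATCGATA (the DRE of housekeeping promoters), GAGAG (bound by GAGA factor) and CAGCTG (an E-box). TATCGATA was present in 7 of the 80 chromosome 4 promoters (8.75%), against 9.36% of the 13968 promoters of protein-coding genes in the genome. GAGAG was present in 19 (23.8%) against 29.7%, and CAGCTG in 3 (3.75%) against 17.6%. Among the 27 starts with HP1 alone, 2 held TATCGATA, 8 held GAGAG and 1 held CAGCTG, that of myo, where it begins 4 bases before the start. Among the 11 starts without HP1 in the main set the counts were 0, 2 and 0. These are matches of letters only.

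Single genes ranged from wholly covered to free of HP1. Of the genes of at least 2 kb, 9 were at 100% in all 3 w1118 libraries, among them mav (a TGF-beta ligand), CR43361, lgs, Slip1 and 4E-T (a repressor of translation). JYalpha, a sodium pump subunit at the proximal end, and the noncoding CR32009 and CR32011 were at 0% in all 3, and CR32010 and the forkhead gene fd102C averaged 4.44% and 10.7%. JYalpha nevertheless lay in H3K9me2 islands over 94.7%, 28.8% and 92.3% of its length, and fd102C in H3K9me3 islands over 62.5%, 62.5% and 76.1%. Both genes thus carried more methylation than HP1 in these lists.

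Groups of genes differed in the median of their mean HP1 coverage in w1118, which was 74.3% over all 118 genes. The median was 42.8% for 12 transcription factor genes such as ey, toy, ci and zfh2, and 89.8% for 11 signaling genes such as lgs, myo, Ephrin and PlexA. It was 81.7% for 7 synaptic genes, 88.6% for 8 housekeeping genes, and 91.4% for 6 genes of RNA silencing and chromatin such as gw and pho. For H3K9me3 the medians were 40.4%, 43.4%, 63.3%, 44.5% and 77.2% in the same order, and 45.5% over all genes. For H3K9me2 they were 29.7%, 11.0%, 38.5%, 15.8% and 46.7%, against 24.7%. The transcription factor genes are not uniform: ci, the effector of Hedgehog signaling, was at 84.6%, 97.4% and 97.4% for HP1, and sv, the Pax2 gene, at 15.9%, 38.3% and 17.5%.

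Transposable elements were covered more than the rest of the chromosome in 33 of 33 lists. INE-1, with 344 copies and 97.3 kb, was inside HP1 islands over 79.5%, 85.8% and 84.2% of its length in w1118. The 60 copies of 1360 were at 96.3%, 96.3% and 89.0%, and the 17 of Cr1a at 98.2%, 99.1% and 99.0%. For H3K9me3 the values were 62.9%, 75.3% and 67.4% for INE-1 and 88.2%, 91.4% and 89.0% for 1360. HeT-A, with 15 copies and 44.3 kb at the distal end, was at 82.4%, 96.6% and 97.6% for HP1 but at only 7.46%, 30.4% and 20.9% for H3K9me3. TART-A was at 1.18% for HP1 in each library. Whether reads could be placed on single copies of HeT-A or TART-A was not tested.

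In AGO2 1-1-7 the HP1 coverage of chromosome 4 stayed within the range of w1118, although the pericentric coverage did not. It was 60.6% and 55.2% in the AGO2 1-1-7 libraries, both between the lowest and the highest w1118 value. Pericentric coverage was 27.3% and 32.6%, below the w1118 values of 57.9%, 57.3% and 59.7%. The mean difference was -3.99 points on chromosome 4 (two-sided exact permutation test, n = 2 and 3, p = 0.5). The excess of chromosome 4 over the pericentric regions averaged 27.9 points in AGO2 1-1-7 and 3.60 points in w1118, and this difference of 24.3 points had the smallest p the design allows (exact permutation test, n = 2 and 3, p = 0.1, adjusted p = 0.7). No test of 2 libraries against 3 can go below 0.1, so neither difference could pass 0.05, and no adjusted p of the 28 tests was below 0.7. The difference on chromosome 4 was 4.39 points, of the opposite sign, among the lists with the shorter smallest distance, where w1118 has 1 library.

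The HP1 bins missing in AGO2 1-1-7 were few on chromosome 4 and gathered around bt. A bin is called lost when every library of the control covered it and no mutant library did, and gained in the reverse case. Of the 686 chromosome 4 bins covered in all w1118 libraries, 51 were lost in AGO2 1-1-7 (7.43%), against 29.1% over all chromosomes and 31.2% in the pericentric regions. They lay in bt (16 bins), zfh2 (4), and dati, ey, myo, Kif3C and CG32017 (3 each), with 7 outside genes. A mean of 20.9% of their bases was transposable element, against 31.4% in the 686. Of the lost bins 42 carried H3K9me2 or H3K9me3 in w1118 (82.4%), close to the 79.7% of all 686. The count was 109 without w1118 replicate 1, 80 without AGO2 1-1-7 replicate 1 and 81 without AGO2 1-1-7 replicate 2.

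The longest lost stretches were the 6.3 kb of bt coding sequence printed above, 5.2 kb over the starts of myo and ey (694301 to 699500), and a further 3.8 kb of bt (765301 to 769100). In bt as a whole (724400 to 776474), HP1 coverage was 32.6%, 50.6% and 55.4% in w1118, 3.84% and 4.42% in AGO2 1-1-7, and 38.0% and 57.0% in the double mutant. The Top3b26 libraries gave 5.57%, 40.5% and 68.7%, so that replicate 1 of Top3b26 lay near AGO2 1-1-7 and the other two near w1118. In myo the values were 72.1%, 100% and 99.7% in w1118, 0% and 43.1% in AGO2 1-1-7, 0%, 73.6% and 100% in Top3b26, and 100% and 79.5% in the double mutant. Over the 100-kb window from 700001 to 800000, the only 1 of 14 in which both AGO2 1-1-7 libraries were below all w1118 libraries, coverage was 37.2%, 56.5% and 50.1% in w1118 and 19.4% and 17.1% in AGO2 1-1-7. In 1 window, the last, both were above all w1118 libraries, at 42.0% and 39.9% against 32.8%, 38.4% and 39.3%. H3K9me2 and H3K9me3 islands covered 100% of the 6.3-kb stretch of bt in all w1118 and all Top3b26 libraries. For w1118 this restates that the stretch lay inside all 9 lists. In Top3b26, HP1 replicate 1 had no island there. Neither methyl mark was profiled in AGO2 1-1-7, so methylation of the stretch in that line is unknown.

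**Figure D3:**
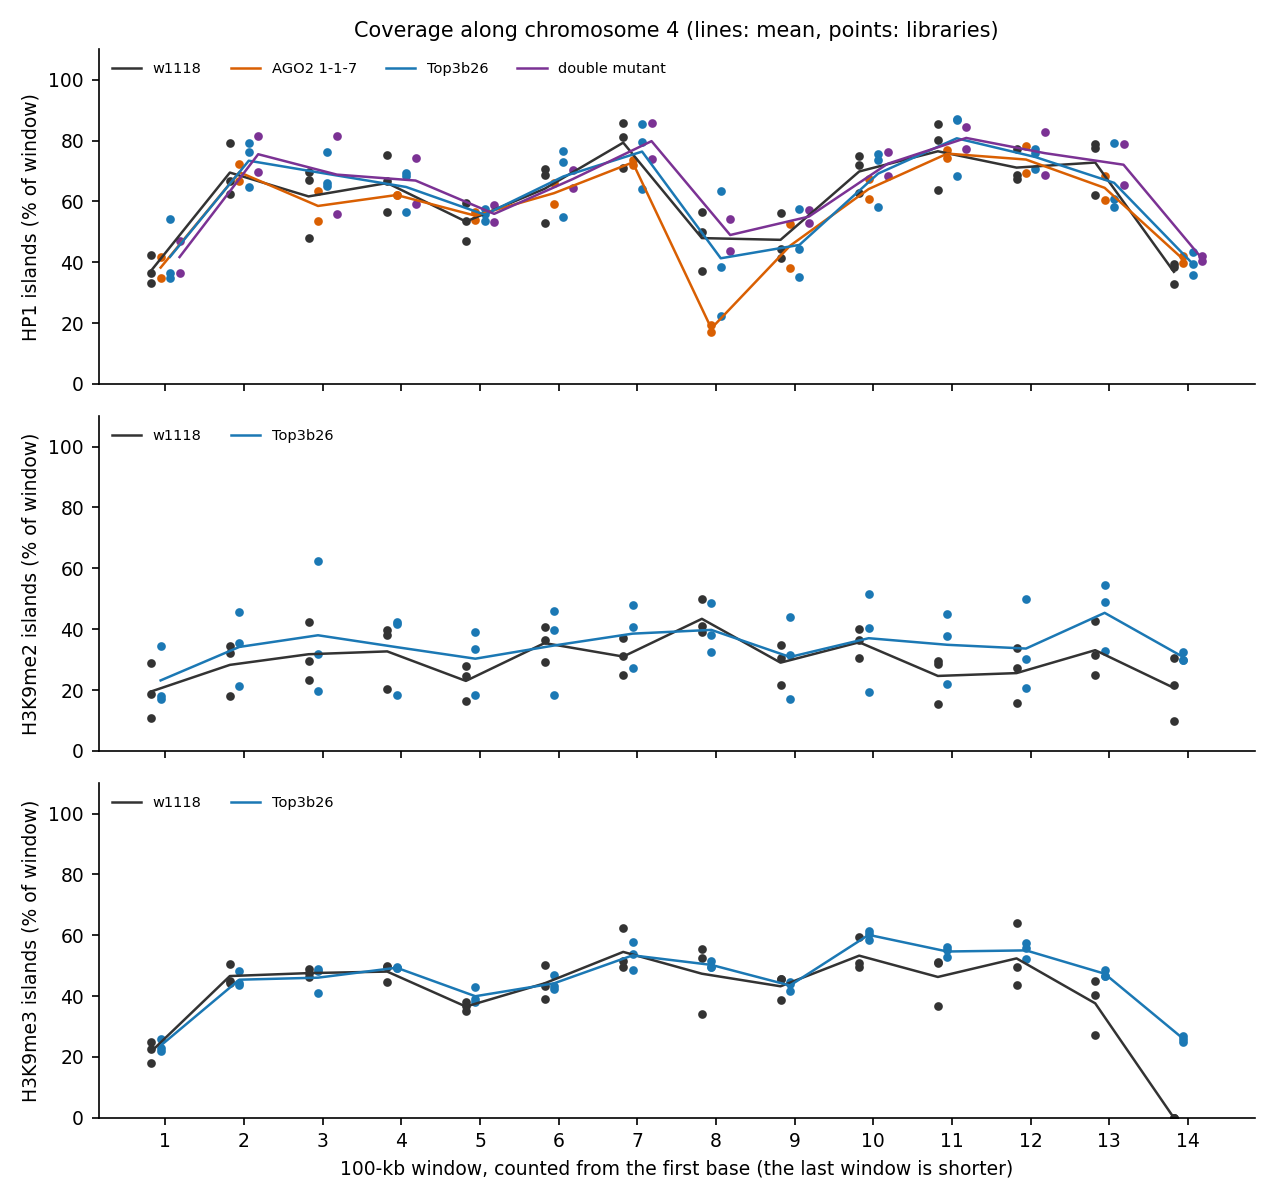
Percentage of each 100-kb window of chromosome 4 inside HP1 (top), H3K9me2 (middle) and H3K9me3 (bottom) islands; points are libraries, lines are means, colors are fly lines and the last window is shorter. HP1 of AGO2 1-1-7 stands at 19.4% and 17.1% in window 8, and H3K9me3 in window 14 is at 0% in every w1118 library and at 24.9% to 27.0% in Top3b26.

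Gained bins numbered 27 of the 697 covered in both AGO2 1-1-7 libraries (3.87%), against 1.29% over all chromosomes and 0.0573% in the pericentric regions. None carried H3K9me2 or H3K9me3 in w1118, against 68.7% of the 697. Gained bins were chosen for lacking HP1 in w1118, where HP1 lay on 93.7% of the bins of each methyl mark. Their lack of methylation thus follows in part from that choice. GC content of the gained bins averaged 28.2%, against 35.3% in the 697 and 32.6% in the bins with HP1 in no w1118 library. The count was 64 without AGO2 1-1-7 replicate 2. The longest gained stretches were 3.3 kb in asRNA:CR43957 (58001 to 61300), 2.4 kb over CG33941 and Asator (469801 to 472200) and 1.9 kb at the start of dpr7 (252501 to 254400). Their middle is shown by the asRNA:CR43957 sequence, of 23.7% GC, beside the lost sequence of bt, of 42%. By gene, Pur-alpha, which encodes a single-stranded nucleic acid binding protein, was at 24.3%, 34.2% and 54.6% in w1118 and at 100% in both AGO2 1-1-7 libraries. CG33941 was at 25.2%, 57.9% and 0% against 100% and 100%.

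The lost and the gained bins were also looked up in the HP1 libraries outside this comparison. Those of the complementation set, which includes another w1118 library, covered 40 to 48 of the 51 lost bins but also 20 to 27 of the 27 gained bins, with 44 and 25 in its w1118. Of all 1349 bins these libraries covered 1006 to 1088 (74.6% to 80.7%), with 1070 (79.3%) in w1118, so most bins of any kind were covered there. The stretch at dpr7 was at 0% in all 3 w1118 libraries of the main set, as its choice requires, and at 100% in all 5 of the complementation set. Of the lost bins, Top3b26 replicates 1, 2 and 3 covered 11, 43 and 51, and the double mutant libraries 43 and 44. Of the gained bins they covered 15, 6 and 5, and 22 and 9, and of all bins 733, 859 and 966, and 955 and 837. Covered bins exceeded uncovered bins in GC content by 2.79 to 3.25 points in the 3 w1118 libraries, by 0.406 and 1.13 in AGO2 1-1-7, by 0.760, 2.66 and 2.80 in Top3b26, by 1.17 and 3.14 in the double mutant, and by 0.0290 to 2.03 in the complementation set. The part of base composition and library in the lost and gained bins was not tested.

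Counted by gene, chromosome 4 had shifts in both directions in AGO2 1-1-7, where the pericentric regions had them in a single direction. Of 83 genes of at least 2 kb, 13 were lower in both AGO2 1-1-7 libraries than in all w1118 libraries (15.7%, against 14% over all chromosomes) and 17 were higher (20.5%, against 0.988%). Of 81 pericentric genes, 61 were lower and 0 higher. The median difference was 0 points on chromosome 4, -26.5 points in the pericentric regions and -4.83 points over all genes. Among 12 transcription factor genes, 5 were lower (dati, ey, Sox102F, toy and zfh2) and 2 higher (Mitf and onecut). Of 11 signaling genes myo and PlexB were lower and Ephrin was higher, and of the 7 listed synaptic genes none stood apart in either direction. Outside that list, the GABA transporter gene Gat was lower, and CaMKII, a kinase gene of synaptic plasticity, was higher. Of 7 housekeeping genes tested eIF4G1 was higher, of 6 genes listed under RNA silencing and chromatin the kinase gene Asator, which is not known for silencing, was higher, and of 3 genes for large proteins bt was lower.

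Some of these shifts were large and some small. RhoGAP102A was at 32.1%, 63.3% and 62.4% in w1118 and at 5.43% and 14.9% in AGO2 1-1-7. Gat, a GABA transporter gene, was at 87.6%, 100% and 100% against 50.5% and 73.5%, and dati, a zinc finger gene, at 61.6%, 77.0% and 58.6% against 29.0% and 35.9%. In toy the groups were set apart by a few points, with 50.5%, 55.5% and 48.9% against 42.4% and 45.6%. On the other side CG46466 was at 38.9%, 48.4% and 38.9% against 100% and 100%, and asRNA:CR43957 at 27.5%, 30.6% and 30.6% against 100% and 81.9%.

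**Figure D4:**
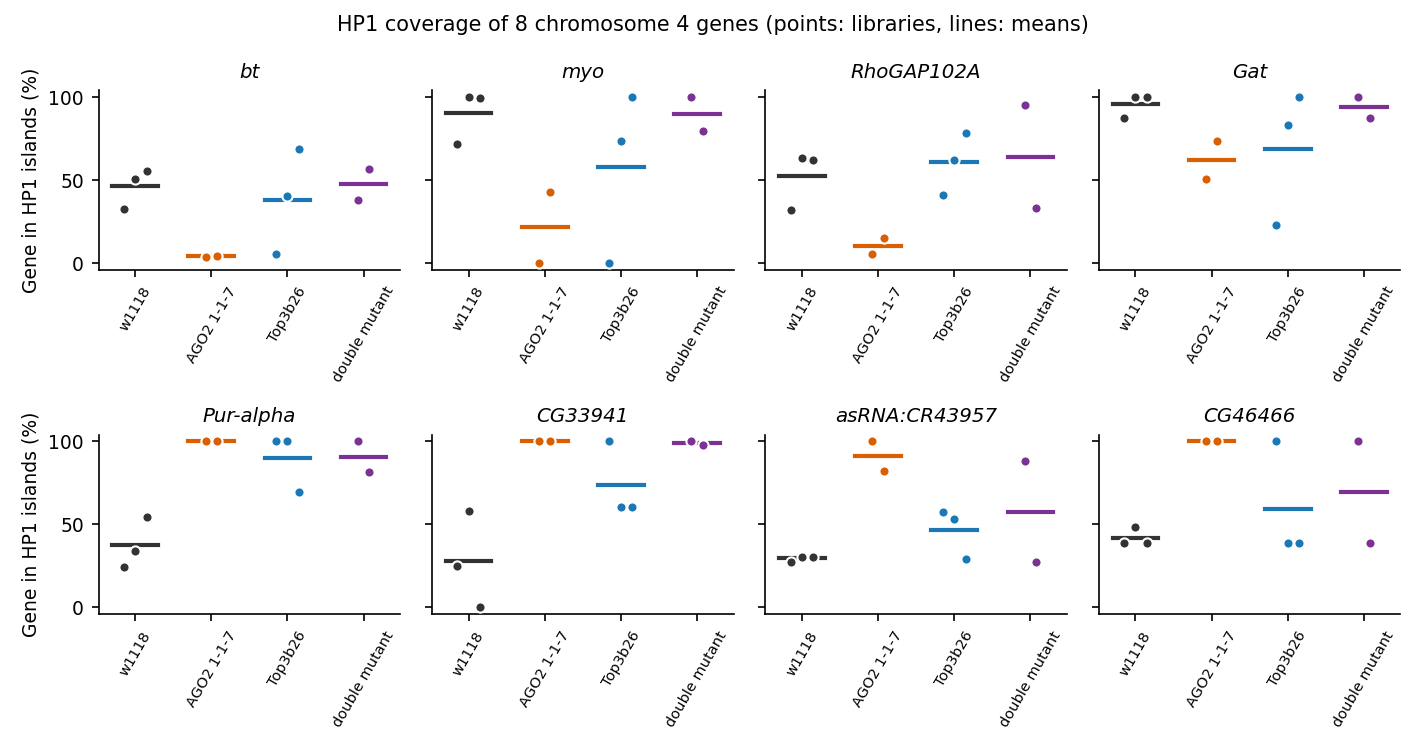
Percentage of each gene inside HP1 islands for 4 genes lower (top) and 4 genes higher (bottom) in AGO2 1-1-7 than in w1118; points are libraries and lines are means. In bt the AGO2 1-1-7 libraries are at 3.84% and 4.42% and Top3b26 replicate 1 is at 5.57%, while the double mutant libraries are at 38.0% and 57.0%.

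In Top3b26 the HP1 coverage of chromosome 4 was close to that of w1118. It was 53.9%, 63.4% and 70.9%, against 53.5%, 68.5% and 63.6%, with overlapping groups and a mean difference of 0.836 points (two-sided exact permutation test, n = 3 and 3, p = 0.8). The excess over the pericentric regions differed by 3.77 points (exact permutation test, n = 3 and 3, p = 0.5). Of 686 bins 0 were lost, against 0.298% over all chromosomes, and 1 of 664 was gained, in CaMKII, against 0.0845%. With 1 library left out, lost bins numbered 0 to 7, the most without Top3b26 replicate 3, and gained bins 1 to 9, the most without w1118 replicate 2 or 3. By gene, 0 of 85 were lower (background 0.335%) and 6 were higher (7.06%, background 0.335%), against 0 of 83 pericentric genes in either direction.

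The 6 genes were Pur-alpha, CG33941, Cals, CaMKII, Asator and onecut. Pur-alpha was at 100%, 100% and 69.7% in Top3b26, above its w1118 range, and CG33941 at 100%, 60.4% and 60.4%. Cals, which encodes calsyntenin, was at 80.7%, 92.8% and 88.6% against 72.1%, 69.9% and 55.3%. CaMKII, the calcium-dependent kinase of synaptic plasticity, was at 79.3%, 85.9% and 91.9% against 53.8%, 78.3% and 78.8%, and Asator was at 78.1%, 67.4% and 66.8% against 53.1%, 65.8% and 63.8%. All 6 were also higher in AGO2 1-1-7, but both comparisons share the w1118 libraries, and the complementation w1118 library covered 100% of Pur-alpha and CG33941.

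H3K9me2 on chromosome 4 varied more between libraries than between lines. Coverage was 36.0%, 22.5% and 31.2% in w1118 and 46.5%, 22.2% and 35.8% in Top3b26, a mean difference of 4.91 points with overlapping groups (two-sided exact permutation test, n = 3 and 3, p = 0.7). No bin of 266 was lost (background 1.78%) and 5 of 282 were gained (1.77%, background 0.338%, pericentric 0.0143%). The gained count was 38 without Top3b26 replicate 2, 13 without w1118 replicate 1 and 9 without w1118 replicate 2. Of 77 genes 0 were lower (background 2.05%) and 2 were higher (2.60%, background 0.658%), both of them signaling genes. PlexA, a semaphorin receptor, was at 0% in all 3 w1118 libraries and at 54.0%, 18.0% and 54.0% in Top3b26, and lgs was at 60.4%, 56.1% and 71.9% against 91.2%, 83.4% and 86.3%.

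The longest gained H3K9me2 stretch was 3.1 kb in PlexA (1022801 to 1025900), 61.5% of it INE-1, HB and Tc1 sequence. By its choice as a gained stretch, H3K9me2 islands covered it at 0% in all w1118 and 100% in all Top3b26 libraries. H3K9me3 and HP1 islands, which played no part in that choice, covered 100% of it in every library of both lines. The others were 1.1 kb of HeT-A (1300601 to 1301700) and 0.9 kb of lgs (442401 to 443300).

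Between the lines, H3K9me3 stood furthest apart at the distal end, in HeT-A. Over the whole chromosome, coverage was 38.0%, 47.6% and 43.4% in w1118 and 47.8%, 46.3% and 45.1% in Top3b26, a difference of 3.41 points (two-sided exact permutation test, n = 3 and 3, p = 0.3). In the last window, from 1300001 to 1348131, it was 0% in all 3 w1118 libraries and 24.9%, 26.0% and 27.0% in Top3b26. The Top3b26 libraries were also all above w1118 in window 11 (1000001 to 1100000), at 55%, 56% and 53% against 36.9%, 50.9% and 51.1%, and in window 13, at 46.7%, 48.7% and 46.7% against 27.3%, 45.1% and 40.5%. Over the 15 HeT-A copies it was 7.46%, 30.4% and 20.9% against 63.1%, 68.0% and 67.4%. The groups did not overlap over HeT-A either. Reads with more than 3 positions in the genome had been dropped by the authors. Whether reads could be placed on single HeT-A copies, and its part in this difference, was not tested. HP1 coverage of HeT-A was 82.4%, 96.6% and 97.6% in w1118 and 89.6%, 95.1% and 100% in Top3b26, and H3K9me2 coverage was 77.8%, 59.4% and 41.0% against 82.0%, 84.2% and 79.2%. HP1 groups overlapped there, and the H3K9me2 libraries of Top3b26 were all above those of w1118.

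Of the 566 bins covered by H3K9me3 in all Top3b26 libraries, 16 were gained (2.83%), against 1.04% over all chromosomes and 0.0954% in the pericentric regions. HeT-A lay in 13 of the 16 gained bins, against 29 of the 566. The other 3 gained bins were in PlexB, toy and lncRNA:CR44023. The 3 longest gained stretches, 3.4 kb (1315801 to 1319200, whose middle is the HeT-A run printed above), 3.3 kb (1309801 to 1313100) and 3 kb (1303701 to 1306700), were HeT-A over 100% of their length and lay in HP1 islands over 100% of their length in every w1118 and Top3b26 library. Islands of the untagged FLAG library, an antibody control, covered 88.2%, 54.5% and 100% of these stretches in turn, and their part in the result was not tested. The gained count was 30 without w1118 replicate 2 and 23 without Top3b26 replicate 2, the library with conflicting descriptions. Lost bins numbered 4 of 456 (0.877%, background 0.539%), in zfh2 (2), Gat and MED26. They were 16 without w1118 replicate 1, 9 without w1118 replicate 3 and 7 without Top3b26 replicate 1.

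**Figure D5:**
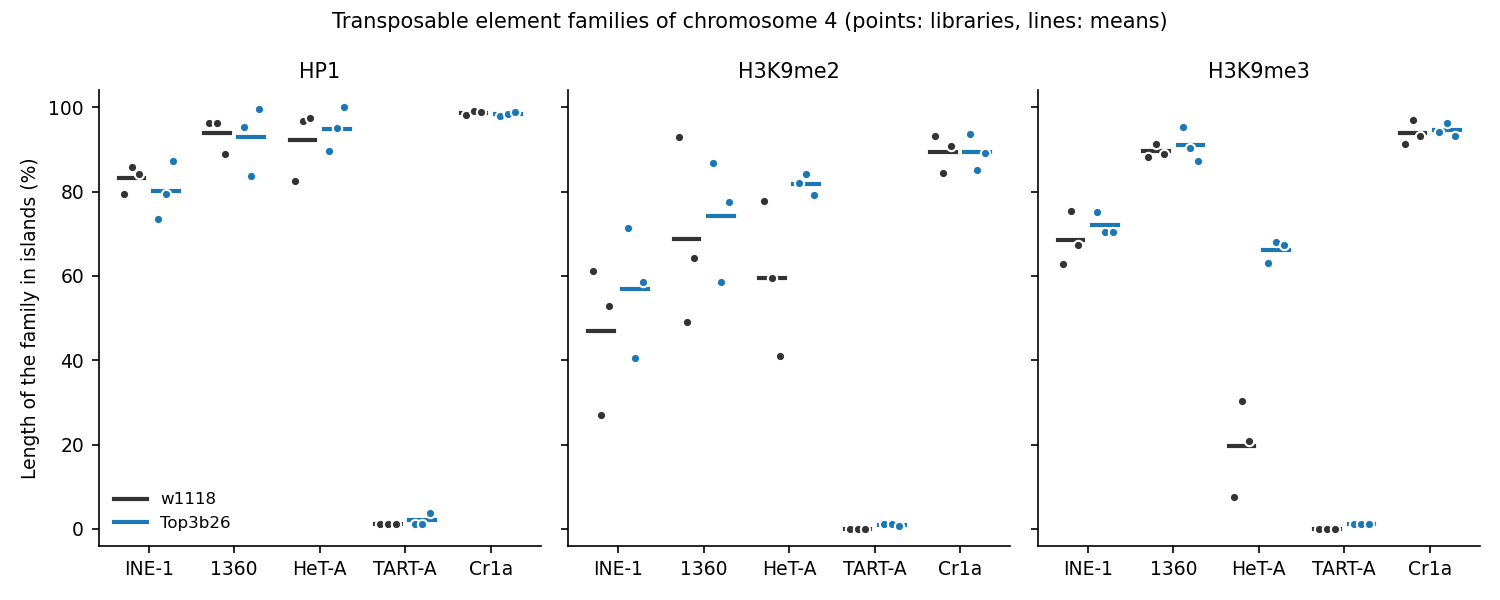
Percentage of the length of each transposable element family of chromosome 4 inside HP1, H3K9me2 and H3K9me3 islands in w1118 and Top3b26; points are libraries and lines are means. HeT-A is at 7.46% to 30.4% for H3K9me3 in w1118 and at 63.1% to 68.0% in Top3b26, while INE-1, 1360 and Cr1a overlap between the lines for every mark.

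The contrast between genes and the rest was smaller in Top3b26 for H3K9me3, the mark of all values in this paragraph. Coverage inside genes exceeded that outside by 16.6, 13.3 and 14.1 points in w1118 and by 6.91, 7.60 and 6.88 points in Top3b26, a difference of -7.52 points (two-sided exact permutation test, n = 3 and 3, p = 0.1, adjusted p = 0.7). Without the 100 kb at each end of the chromosome it was -0.530 points (p = 0.7, exact permutation test, n = 3 and 3), and the ends were not left out separately. Gene bodies exceeded gene starts by a mean of 26.6 points in w1118 and 21.9 points in Top3b26 (difference -4.74 points, exact permutation test, n = 3 and 3, p = 0.1, adjusted p = 0.7). The difference of chromosome 4 from the pericentric regions was -17.2 points in w1118 and -13.01 points in Top3b26 (difference 4.15 points, exact permutation test, n = 3 and 3, p = 0.1, adjusted p = 0.7).

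Of 80 genes 1 had less H3K9me3 in every Top3b26 library than in every w1118 library (1.25%, background 0.846%) and 4 had more (5%, background 6.06%). Zyx, the zyxin gene, was at 0%, 0% and 21.4% in w1118 and at 31.9%, 71.2% and 80.4% in Top3b26. Zip102B, a zinc transporter gene, was at 0%, 63.3% and 63.3% against 72.8%, 66.5% and 72.8%. MED26, a Mediator subunit gene, was the lower one, at 68.6%, 58.3% and 71.5% against 57.0%, 50.7% and 51.4%. Cals and CR32010 were the other two that were higher, Cals by 1.91 points. The housekeeping, signaling and transcription factor lists held 1, 0 and 0 of these genes.

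In the double mutant, HP1 on chromosome 4 was at 69.9% and 60.8%. Its mean was above w1118 by 3.44 points (two-sided exact permutation test, n = 2 and 3, p = 0.7), above Top3b26 by 2.60 points (exact permutation test, n = 2 and 3, p = 0.9) and above AGO2 1-1-7 by 7.43 points (exact permutation test, n = 2 and 2, p = 0.333, the smallest possible). Both double mutant libraries exceeded both AGO2 1-1-7 libraries, and the other groups overlapped with it. The excess over the pericentric regions was 4.66 points in the double mutant, near the 3.60 of w1118, and differed from AGO2 1-1-7 by -23.3 points (exact permutation test, n = 2 and 2, p = 0.333).

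Against w1118, 2 of 686 bins were lost in the double mutant, both in dati (background 3.82%), and 19 of 797 were gained (2.38%, background 1.26%). Against Top3b26, 3 of 664 were lost (background 1.21%) and 5 of 797 gained (background 1.18%). Against AGO2 1-1-7, 10 of 697 were lost (1.43%, background 1.87%) and 53 of 797 were gained (6.65%, background 31.3%), with 18 in bt and 4 in Sox102F. Of the 53 bins, 38 were among the 51 that AGO2 1-1-7 lacked against w1118, 71.7% of the former and 74.5% of the latter, but both counts use the same AGO2 1-1-7 libraries. The longest such stretch was 17.6 kb of bt (753901 to 771500). By gene, 1 of 84 was lower than in w1118, dati, at 47.4% and 41.6% (background 9.42%), and 12 were higher (14.3%, background 0.631%).

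Among these 12, JYalpha was at 0% in all w1118 and AGO2 1-1-7 libraries of the main set, at 97.1% and 26.4% in the double mutant and at 0%, 0% and 85.1% in Top3b26. Pur-alpha was at 100% and 81.8%, CG33941 at 100% and 98.1%, Ephrin, a ligand of axon guidance, at 91.6% in both, and fd102C at 30.7% and 33.1%. In JYalpha the complementation libraries ranged from 17.8% to 100%, with 100% in its w1118. With a library left out, bins gained against w1118 numbered 81 without double mutant replicate 2 and 33 without w1118 replicate 2. Bins lost against w1118 numbered 25 without w1118 replicate 1, 14 without double mutant replicate 2, 12 without double mutant replicate 1 and 11 without w1118 replicate 3. Against Top3b26, lost bins numbered 31 without double mutant replicate 1, 23 without Top3b26 replicate 1 and 6 without double mutant replicate 2, and gained bins numbered 53 without double mutant replicate 2, 32 without Top3b26 replicate 3, and 11 without double mutant replicate 1 or Top3b26 replicate 1. Against AGO2 1-1-7, each library left out gave more gained bins, from 81 without double mutant replicate 1 to 128 without double mutant replicate 2, and lost bins numbered 44 without double mutant replicate 1, 30 without AGO2 1-1-7 replicate 2 and 16 without AGO2 1-1-7 replicate 1.

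Top3b islands past the score minimum were sparse on chromosome 4 and lay on transposon-rich HP1 chromatin. The minimum kept 6 of 23, 27 of 39 and 11 of 65 Top3b islands there. The kept islands covered 1.08%, 5.01% and 2.70% of the chromosome in the 3 libraries. On average over library pairs, 91.8% of their length lay in HP1 islands of w1118, where HP1 covered 61.9% of the chromosome. At least 2 libraries shared 8 stretches with 17.6 kb in all. The longest, 4.7 kb (1274801 to 1279500), was in all 3 libraries, was 100% HeT-A, HeT-Tag and 1360 sequence, and lay in HP1 islands of every library. Next came 3.5 kb of Cr1a and 1360 (931201 to 934700) and 2.8 kb in an intron of CG11360 (681601 to 684400). No Top3b island past the score minimum fell on the bt stretches that lacked HP1 in AGO2 1-1-7. Over HeT-A, Top3b islands covered 16.8%, 61.7% and 10.2%. Of the Top3b island length, 28.8% on average lay inside islands of the untagged FLAG library, which covered 5.01% of the chromosome.

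FLAG islands were as sparse. FLAG-AGO2 islands covered 2.88% and 0.527% of the chromosome, below the 5.01% of the untagged w1118 library, and the FLAG-AGO2 libraries shared no base. The list of replicate 2 had already been set against untagged FLAG by the authors, so its low coverage and the lack of shared bases follow in part from how it was made. Of the island length of FLAG-AGO2 replicate 1, 74.2% lay inside islands of the untagged library, and of replicate 2 0%. HeT-A was at 11.3% and 0.0972% with the tag and at 36.8% without it. The 4.7-kb Top3b stretch lay in islands of the untagged library over 34.0% of its length and of FLAG-AGO2 over 68.1% and 0%.

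In the complementation set, HP1 covered 78.9% of chromosome 4 in w1118, 74.0% in Top3b26, 80.2% with WT Top3b, 74.8% with Y332F and 77.3% with dRGG. Pericentric coverage was 72.0%, 65.0%, 67.8%, 52.8% and 59.7% in the same order. There was 1 library for each line, so no difference could be tested. The range of chromosome 4 values, 74.0% to 80.2%, was narrower than the 53.5% to 68.5% of the 3 w1118 libraries of the main set. That of the pericentric values, 52.8% to 72.0%, was wider than the 57.3% to 59.7% of those libraries. The main set lists differ in smallest island distance, so these ranges do not show whether lines differ. In bt the values were 54.7%, 49.1%, 58.5%, 42.0% and 50.5%, all above both AGO2 1-1-7 libraries of the main set. Those 2 libraries also covered less of chromosome 4, at 60.6% and 55.2%.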

How the data were processed

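Per the labels and methods, reads of 50 bases were aligned with Bowtie2 to dm6, allowing 2 mismatches and keeping reads with up to 3 positions. The submitters' processing notes also list FastQC, SAMtools 1.8, SICER and bedtools. Islands were called with SICER against input of the same line, with windows of 100 bp, gaps of 600 bp and an FDR of 5%. The deposited lists give each island's position and a score, written by the authors' caller. They hold no read counts, so depth is unknown and no counting interval could be given. The header of the FLAG-AGO2 replicate 2 list describes it as already compared with untagged FLAG. The label of Top3b replicate 2 names another repeat number, and its title was used.

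Islands with a score of at least 200 were kept and laid on a grid of 100 bp. Coverage was taken over chromosome 4, bins of 1 kb (covered at 50%), windows of 100 kb, genes of BDGP 6.54 (Ensembl release 115) and windows of 250 bp on each side of gene starts. Group means of 4 measures (coverage, inside minus outside genes, chromosome 4 minus pericentric, and gene bodies minus starts) were compared in 7 comparisons by two-sided exact permutation tests over libraries, 28 tests in all, with Benjamini-Hochberg adjustment. The smallest possible p was 0.1, or 0.333 for 2 against 2 libraries, so none could pass 0.05. These p-values measure only the spread between libraries. A gene of at least 2 kb was counted lower or higher where the groups did not overlap, and background is the percentage of such genes, or of lost or gained bins, over all chromosomes.

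The text names the 3 longest stretches per comparison and direction and, for w1118, of each class. It names the 5 genes of lowest HP1, 5 of the 9 tied at the highest, an arbitrary choice among them, the 5 largest gene differences without overlap, and members of the gene lists. Other genes and stretches were named after their values were seen, and some items that the rule names are not reported here. The bins, lists and rules were chosen with earlier results of these data known. Same-numbered HP1 libraries of Top3b26 and w1118 deviated together (correlations 0.368, 0.126 and 0.266), as did those of H3K9me2 (0.282, 0.304 and 0.255), so these numbers were taken to pair the libraries. In both marks each Top3b26 library correlated most with the w1118 library of its number. An HP1 pair of unlike numbers, Top3b26 replicate 3 and w1118 replicate 2, also reached 0.126. Same-numbered HP1 lists of these lines share their smallest island distance, whose part was not tested. The same-numbered libraries of H3K9me3 (0.178, 0.0108 and 0.129) did not all correlate most, and those of w1118 with AGO2 1-1-7 (-0.170 and -0.0697) or with the double mutant (-0.206 and -0.0784) were negative. The tests printed in Results did not use the pairing. Alternatives were another score minimum, other bin rules, left-out libraries, left-out chromosome ends, coding genes alone, a replicate block and joined islands. Python 3.11.15, numpy 2.4.6 and matplotlib 3.10.9 were used, and scripts were tested on simulated data.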

Additional observations from a re-analysis of the deposited data

How the results depend on the processing

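With the replicate number as a block, all 28 differences kept their direction, and the smallest p was 0.25 (exact permutation within pairs). The numbers were taken to pair libraries only for HP1 and H3K9me2 of Top3b26 and w1118, and elsewhere they are shared numbers alone. Under the block, HP1 coverage in Top3b26 differed from w1118 by 0.836 points, that in AGO2 1-1-7 by -3.12 and that in the double mutant by 4.31, and no call changed. Joining islands within 1100 bp, chosen after seeing the data, gave -0.213 points for HP1 coverage in Top3b26. The lists with the shorter distance alone gave 4.39 points in AGO2 1-1-7. For HP1 in AGO2 1-1-7 the contrast of inside against outside genes was -0.0156 without a score minimum, -0.261 with joined islands and -1.44 for coding genes alone. For H3K9me2 it was 0.849 without a minimum, 2.81 without the chromosome ends and 0.427 for coding genes alone. The cause of these reversals was not tested.

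With 1 library left out, 19 of 148 differences reversed. HP1 coverage ranged from -3.36 to 5.23 points for Top3b26, from -1.13 to 8.00 for the double mutant and from -1.96 to 7.17 for the double mutant against Top3b26, and H3K9me2 coverage from -0.914 to 11.2. Inside minus outside genes ranged from -0.539 to 3.31 (Top3b26), -1.60 to 2.25 (AGO2 1-1-7), -0.914 to 5.49 (double mutant against Top3b26) and -4.22 to 4.84 (H3K9me2). Chromosome 4 minus pericentric HP1 ranged from -0.245 to 7.60 (Top3b26), -2.95 to 4.89 (double mutant) and -5.32 to 0.758 (double mutant against Top3b26). Bodies minus starts ranged from -4.30 to 0.147 (Top3b26), -0.0492 to 4.40 (double mutant) and -0.444 to 6.10 (H3K9me2).

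Counts of bins moved most. With 1 library left out, lost and gained HP1 bins numbered 0 to 7 and 1 to 9 in Top3b26, 51 to 109 and 31 to 64 in AGO2 1-1-7, and 2 to 25 and 25 to 81 in the double mutant. They numbered 3 to 31 and 5 to 53 for the double mutant against Top3b26, and 13 to 44 and 81 to 128 against AGO2 1-1-7. For H3K9me2 they were 0 to 2 and 6 to 38, and for H3K9me3 4 to 16 and 17 to 30. Counting a bin with any base covered gave 1 lost HP1 bin in Top3b26, 15 gained in AGO2 1-1-7, 11 gained in the double mutant, 1 gained against Top3b26 and 27 gained H3K9me3 bins. Counting only wholly covered bins gave 2 gained in Top3b26, 45 gained in AGO2 1-1-7, 9 lost and 1 gained in the double mutant against Top3b26, 27 lost against AGO2 1-1-7, and 2 lost and 10 gained for H3K9me3. Joined islands gave 3 gained in Top3b26 and 6 lost in the double mutant against AGO2 1-1-7. Untagged FLAG coverage was 5.45% without a score minimum and 3.72% with a minimum of 400.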
